A study of Mus musculus with 6 samples.

Results

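Respiratory complex I is NADH:ubiquinone oxidoreductase, the entry point of electrons from NADH into the mitochondrial respiratory chain. The messenger RNAs described here are those of its nuclear-encoded subunits and of the Ndufaf assembly factors, taken as every mouse gene on the array whose symbol begins with Nduf, apart from Ndufa4l2. The rule found 45 genes among the 20021 named on the array, measured by 53 of its 39429 non-control probes. They fall into 26 accessory genes (Ndufa, Ndufb and Ndufc), 11 genes of the Ndufs and Ndufv series, here called core as the rule does, and 8 assembly factor genes. All 45 were well above background on all 6 arrays, so no member was lost to the filter on dim probes. The name does not decide function in every case. Ndufa4 is now assigned to complex IV, Ndufab1 is also the mitochondrial acyl carrier protein, and Ndufs4, Ndufs5, Ndufs6 and Ndufv3 are accessory subunits despite their names. RefSeq lists 8 further mouse Nduf symbols for which the array had no probe, namely Ndufb1 and 7 pseudogenes or near copies such as Ndufb4b and Ndufs6b. Whether the probes of Ndufb4 or Ndufs6 also bind transcripts of such copies was not tested. The mitochondrially encoded subunits, mt-Nd1 to mt-Nd6 and mt-Nd4l, were not analysed here.

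The samples were heads of mouse embryos, with the first branchial arch, at embryonic day 9.5. Of these, 3 samples were wild type and 3 were Arid3b-null, each made from the pooled heads of 4 embryos and hybridised to its own single-colour Agilent array. The labels name neither a treatment, nor a strain, nor which Arid3b allele was used. Each of 3 slides held a wild type and an Arid3b-null array of the same replicate number, wild type always in position 1 and Arid3b-null in position 2, so that the effect of position cannot be told apart from that of genotype. Values below are log2 signals relative to the 75th percentile of the array. A difference is Arid3b-null minus wild type with its standard error, from 3 arrays in each group, and a gene is said to have risen or fallen where limma gave a Benjamini-Hochberg adjusted p under 0.05 over the 14906 genes tested. A whole head is a mixture of cell types, so fewer cells of a type and less RNA per cell cannot be told apart.

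Complex I has the shape of an L. Its matrix arm takes electrons from NADH and carries them along iron-sulfur clusters to ubiquinone, and its membrane arm pumps protons. A small set of catalytic subunits is conserved from bacteria to mammals, with part of it encoded in mitochondrial DNA. The many accessory subunits surround this core and are needed for its stability and assembly. Assembly factors join intermediate complexes and leave the finished enzyme. The transcription factor Nrf1 is known to bind the promoters of many nuclear genes of the respiratory chain.

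Promoter sequences are shown for members chosen in part by the Nrf1 motif. Ndufaf4, Ndufa5 and Ndufa11 are the members that fell and held a match. Ndufaf2 and Ndufab1 had the largest falls, and Ndufa6 had the highest difference of the members with a match. Ndufa12 and Ndufb7 also fell, but held no match and are not printed. The share of printed promoters with a match is therefore not a result. RefSeq promoter windows of GRCm38.p6, from 250 bases before to 50 after the gene start, were found for 40 of the 45 genes. Each is printed 5′ to 3′ on the strand of the gene, with capitals marking a match to the palindromic Nrf1 motif with 1 base free, read on both strands. The sequences without capitals held no such match.
Ndufaf2, chr13:108158576-108158875, minus strand: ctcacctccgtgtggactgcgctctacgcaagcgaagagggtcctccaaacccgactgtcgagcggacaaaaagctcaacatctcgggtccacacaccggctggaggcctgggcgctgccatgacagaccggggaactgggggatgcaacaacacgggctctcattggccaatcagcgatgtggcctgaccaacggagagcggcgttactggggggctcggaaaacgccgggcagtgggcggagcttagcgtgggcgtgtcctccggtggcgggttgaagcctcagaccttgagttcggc
Ndufaf4, chr4:24897833-24898132, plus strand: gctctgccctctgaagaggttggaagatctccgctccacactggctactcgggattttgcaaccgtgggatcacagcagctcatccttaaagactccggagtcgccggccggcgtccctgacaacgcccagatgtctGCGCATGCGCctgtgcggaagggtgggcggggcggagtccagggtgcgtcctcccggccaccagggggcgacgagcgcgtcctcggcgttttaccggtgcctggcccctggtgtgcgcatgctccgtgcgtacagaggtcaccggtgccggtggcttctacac
Ndufab1, chr7:122101799-122102098, minus strand: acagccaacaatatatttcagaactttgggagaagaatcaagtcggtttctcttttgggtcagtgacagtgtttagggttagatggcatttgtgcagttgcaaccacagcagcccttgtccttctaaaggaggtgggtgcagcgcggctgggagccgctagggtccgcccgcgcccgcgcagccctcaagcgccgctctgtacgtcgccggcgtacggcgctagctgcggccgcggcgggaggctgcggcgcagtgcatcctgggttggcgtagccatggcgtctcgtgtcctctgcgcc
Ndufa5, chr6:24527641-24527940, minus strand: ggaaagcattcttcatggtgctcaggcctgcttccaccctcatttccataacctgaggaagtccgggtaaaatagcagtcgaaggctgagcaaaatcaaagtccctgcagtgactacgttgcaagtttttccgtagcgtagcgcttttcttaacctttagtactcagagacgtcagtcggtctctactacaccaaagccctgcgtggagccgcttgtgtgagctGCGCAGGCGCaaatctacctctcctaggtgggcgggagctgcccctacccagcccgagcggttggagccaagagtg
Ndufa11, chr17:56717512-56717811, plus strand: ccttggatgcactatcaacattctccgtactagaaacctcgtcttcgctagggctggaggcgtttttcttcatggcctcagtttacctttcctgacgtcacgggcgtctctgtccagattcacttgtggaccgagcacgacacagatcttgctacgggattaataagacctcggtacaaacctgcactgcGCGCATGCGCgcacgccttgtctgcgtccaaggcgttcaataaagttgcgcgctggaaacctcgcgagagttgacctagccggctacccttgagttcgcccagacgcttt
Ndufa6, chr15:82354242-82354541, minus strand: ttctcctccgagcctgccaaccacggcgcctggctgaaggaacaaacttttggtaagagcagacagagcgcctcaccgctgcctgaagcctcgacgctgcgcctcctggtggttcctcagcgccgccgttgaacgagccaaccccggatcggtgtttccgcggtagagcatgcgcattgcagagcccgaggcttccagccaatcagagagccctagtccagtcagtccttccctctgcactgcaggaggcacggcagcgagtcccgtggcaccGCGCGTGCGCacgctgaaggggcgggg

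The Nrf1 letters stood in the windows of 9 of the 40 members with a promoter, or 22.5%, beside 5.19% of the 27025 genes in the RefSeq table. The first matching base lay at position -60 in Ndufa11, -26 in Ndufa5, -113 in Ndufaf4 and 24 in Ndufa6, counting the first base of the gene as 1. The Yy1 letters AAGATGGCG were in 6 members, 15.0% beside 1.64% of all genes. The letters CCGGAAG of Ets factors such as Gabpa were also in 6, 15.0% beside 9.93%, and the hypoxia response letters ACGTG in 7, 17.5% beside 21.8%. Each of these was searched on both strands, and a match is a description of letters, not of a bound site.

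The targeted gene was checked first. Arid3b signal was 1.98, 2.26 and 3.09 in wild type and 1.27, 1.06 and 1.44 in Arid3b-null heads, and fell by 1.19 ± 0.29 on the log2 scale (adjusted p = 0.0265), which left 43.9% of the wild type signal. That is the brightest of 3 Arid3b probes, and the dimmer ones fell by 1.37 and 2.33 (adjusted p = 0.0224 and 0.000759 over all probes). The gene did not pass with no filter on dim probes or without any 1 of the Arid3b-null arrays (adjusted p up to 0.0861). The place of the probes relative to the deletion was not examined. On the 6 arrays, 67.9% to 70.3% of probes were well above background and none was saturated. All 8 head and arch markers listed were measured, with a summed linear signal, in units of the 75th percentile, of 26.8 to 28.1 in wild type and 29.9 to 34.4 in Arid3b-null heads. Of these markers 2 fell, Dlx2 by 1.13 and Prrx1 by 0.85, and 1 rose. The one that rose was the brightest of the 8 and so weighs most in a linear sum. The median difference of the 8 was -0.013, with 4 below 0. Summed erythroid signal over 8 markers was 633 to 855 in wild type and 488 to 1003 in Arid3b-null heads, with 1 of 8 lower. Over 6 endothelial markers it was 6.36 to 10.9 and 6.68 to 8.13, with none changed by limma and 1 at an unadjusted p under 0.05. Over the 6 of 8 heart muscle markers that passed the filter it was 0.675 to 1.93 and 0.954 to 1.06, with none changed and none at an unadjusted p under 0.05, and Myl7 and Myl2 did not pass. The part of any of these in the complex I values was not tested.

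Across complex I, 7 of 45 genes fell in Arid3b-null heads, 1 rose and 37 did not pass the test. The share that fell, 15.6%, stands beside 11.2% of all genes tested, and the share of all genes that rose was 12.3%. The share of all genes that fell varied with mean log2 signal. It was 10.1% below 0, 11.4% at 0 to 2, 14.5% at 2 to 4 and 13.5% above 4. At these levels 1 of 3, 3 of 11, 0 of 14 and 3 of 17 complex I genes fell. The differences ran from -1.54 for Ndufaf2 to 0.52 for Ndufv3, with a median of -0.32 beside -0.04 for all genes. The median of all genes also varied with level. From the lowest level to the highest it was 0.015, -0.04, -0.14 and -0.17, where the members had -0.67, -0.27, -0.28 and -0.34. Of the 45 genes, 38 had a difference below 0, or 84.4%, against 53.2% of all genes, and 17 lay below -0.5, or 37.8%, against 17.0%. The complex I genes therefore lay mostly on the low side with small differences, and few of them passed the test. The wild type and Arid3b-null arrays did not overlap, with Arid3b-null lower, in 12 members, 26.7% beside 21.8% of all genes, and with Arid3b-null higher in 1 member, where 20.6% of all genes did so. The median was -0.15 with quantile normalization, where that of all genes was 0.0059 and 36 of 45 differences were below 0. It was -0.18 with normexp background correction, -0.19 without wild type replicate 1 and -0.55 without wild type replicate 3.

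**Figure D1:**
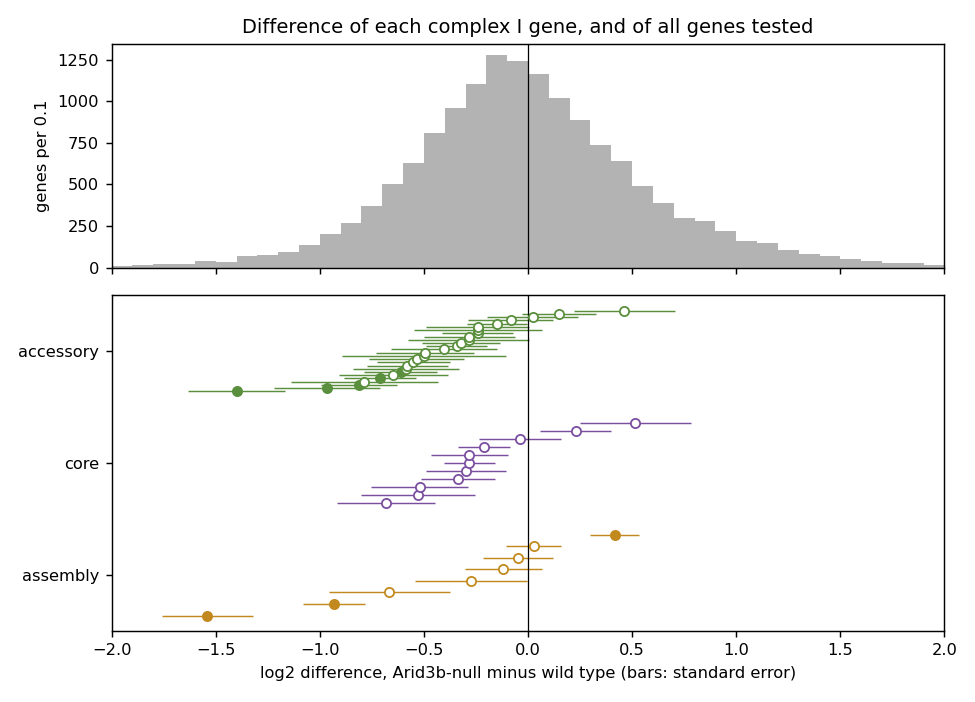
Difference of each complex I gene between Arid3b-null and wild type heads (log2, x axis), with all 14906 genes tested as a histogram (number of genes in bins of 0.1) above and the accessory, core and assembly genes below. Points are genes, bars are standard errors, and filled points passed the test; most points lie left of 0, and 8 are filled, 7 of them on the left.

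The assembly factors held both the largest fall and the single rise. Of 8 genes, 2 fell (25%) and 1 rose, where 11.2% of all genes fell and 12.3% rose. The median difference of the 8 was -0.20. Ndufaf2 is a paralogue of the subunit Ndufa12 and sits on a late assembly intermediate. Its signal was 2.10, 1.82 and 1.30 in the 3 wild type samples and 0.10, 0.36 and 0.14 in the 3 Arid3b-null samples, and the groups were well apart. It fell by 1.54 ± 0.22 (adjusted p = 0.00452), to 34.4% of wild type. Ndufa12 itself, which takes the place of Ndufaf2 in the finished enzyme, is described below among the accessory genes that fell.

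Ndufaf4 acts with Ndufaf3 on the part of the matrix arm that binds ubiquinone. Ndufaf4 read 2.33, 2.24 and 1.95 in wild type and 1.31, 1.27 and 1.15 in Arid3b-null heads. It fell by 0.93 ± 0.15 (adjusted p = 0.00645), again with no overlap, to 52.4% of wild type. Its partner gave a different picture. Ndufaf3 read 0.23, 0.24 and -0.0018 in wild type and 0.12, 0.21 and 0.22 in Arid3b-null heads, a difference of 0.028 ± 0.13 (adjusted p = 0.900).

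Ndufaf7 is a methyltransferase that acts early in assembly. Its arrays read 1.18, 1.10 and 1.18 in wild type and 1.56, 1.61 and 1.55 in Arid3b-null heads. Both groups were tight and did not overlap. Ndufaf7 rose 1.33-fold, a difference of 0.42 ± 0.12 (adjusted p = 0.0436). This call was close to the threshold and was lost in 9 of 16 other settings, among them median centring of the arrays, with adjusted p-values up to 0.145.

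The other 5 assembly factors did not pass the test. Ndufaf8, the partner of Ndufaf5, read -0.64, -0.94 and -1.77 in wild type and -1.89, -1.58 and -1.89 in Arid3b-null heads. Its difference of -0.67 ± 0.29 (adjusted p = 0.143) came with overlap, since wild type replicate 3 lay inside the Arid3b-null range while the other wild type samples lay above it. Ndufaf1, which helps build the membrane arm, read 1.21, 0.84 and 0.15 against 0.39, 0.66 and 0.34, a difference of -0.27 ± 0.27 (adjusted p = 0.505). Here too wild type replicate 3 was the low one, and it lay below every Arid3b-null sample. Ndufaf5, which hydroxylates the core subunit Ndufs7, read -2.43, -2.62 and -2.12 against -2.31, -2.55 and -2.46 (difference -0.048 ± 0.17). Ndufaf6 differed by -0.12 ± 0.18.

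Among the 26 accessory genes, 5 fell, or 19.2%, beside 11.2% of all genes. None rose by limma (none at an unadjusted p under 0.05 either), beside 12.3% of all genes, and the median difference was -0.45. By name, 4 of 14 Ndufa genes fell (28.6%, median -0.54) and 1 of 10 Ndufb genes fell (10%, median -0.41). Neither of the 2 Ndufc genes passed by limma, nor at an unadjusted p under 0.05 (median -0.32). Ndufab1, the acyl carrier protein that also serves mitochondrial fatty acid synthesis, had the largest difference of the accessory genes. It read 1.05, 0.74 and 0.18 in wild type and -0.71, -0.63 and -0.89 in Arid3b-null heads. It fell by 1.40 ± 0.23 (adjusted p = 0.00732), to 37.9% of wild type, and the groups stood clearly apart.

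Ndufa5 and Ndufa12 belong to the matrix arm. Ndufa5 read 5.28, 4.94 and 4.48 in wild type and 3.96, 4.25 and 3.59 in Arid3b-null heads, and fell by 0.97 ± 0.25 (adjusted p = 0.0345). Ndufa12 read 5.06, 4.87 and 4.55 against 3.99, 4.29 and 4.07, and fell by 0.71 ± 0.17 (adjusted p = 0.0273). In both, all Arid3b-null samples lay below all wild type samples, and wild type replicate 3 was the nearest to them. Ndufa5 was at 51.2% and Ndufa12 at 61.1% of the wild type signal. The Ndufa5 call was lost in 5 of 17 other settings (adjusted p up to 0.114) and the Ndufa12 call in 6 of 16 (adjusted p up to 0.109), in each case when dim probes were kept or when wild type replicate 1 or 2 or Arid3b-null replicate 1 or 3 was left out, and for Ndufa12 also when Arid3b-null replicate 2 was.

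Ndufa11 and Ndufb7 belong to the membrane arm. Ndufa11 read 2.43, 2.25 and 1.86 in wild type and 1.21, 1.50 and 1.40 in Arid3b-null heads, and fell by 0.81 ± 0.18 (adjusted p = 0.0206). Ndufb7 read 5.27, 5.16 and 4.84 against 4.35, 4.72 and 4.36, and fell by 0.61 ± 0.18 (adjusted p = 0.0462). The Ndufa11 call was lost when any array other than wild type replicate 3 was left out (5 of 17 other settings, adjusted p up to 0.0876). The groups did not overlap in either gene, but in Ndufb7 only 0.12 separated wild type replicate 3 from Arid3b-null replicate 2. The Ndufb7 call was lost in 8 of 16 other settings, quantile normalization among them, with adjusted p-values up to 0.160.

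A further 3 accessory genes had groups that did not overlap without passing the test. In total 8 of 26 accessory genes were lower without overlap, 30.8% beside 21.8% of all genes. By arm this share was 26.3% in the membrane arm list and 25% in the matrix arm list. The 3 that did not pass were Ndufa8 (-0.55 ± 0.18, adjusted p = 0.0631), Ndufa1 (-0.58 ± 0.19, adjusted p = 0.0714) and Ndufa3 (-0.34 ± 0.15, adjusted p = 0.138), all of the membrane arm. Ndufa4 read 4.52, 4.0 and 3.21 in wild type and 3.00, 3.55 and 2.81 in Arid3b-null heads. Its difference of -0.79 ± 0.35 (adjusted p = 0.150) was close to that of Ndufa11, but its wild type samples were spread over a wide range that took in Arid3b-null replicate 2. The widest wild type spread of all members was that of Ndufb2, 1.58 from lowest to highest, with a difference of -0.50 ± 0.40 (adjusted p = 0.402).

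Only 3 accessory genes had a difference above 0. Ndufa6, which holds Ndufab1 in the matrix arm, read 3.22, 2.94 and 2.39 in wild type and 3.06, 3.59 and 3.29 in Arid3b-null heads. Its difference was 0.46 ± 0.24 (adjusted p = 0.214), with overlapping groups, whereas Ndufab1 fell. The other two were Ndufa7 (0.15 ± 0.18) and Ndufb11 (0.023 ± 0.22). Ndufb11 read 5.17, 4.83 and 4.40 against 4.75, 5.03 and 4.68. Ndufa13, also known as Grim19, read 6.12, 5.83 and 5.45 against 5.68, 5.93 and 5.55 (-0.082 ± 0.20, adjusted p = 0.805), so its groups covered the same range.

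None of the 11 core genes passed limma's test, where 23.5% of all genes did. Among the 11, Ndufs5 alone had an unadjusted limma p under 0.05. The core differences ran from -0.68 to 0.52 with a median of -0.28, and 9 of 11 were below 0. Ndufs5, an accessory subunit of the membrane arm, read 4.77, 4.53 and 4.01 in wild type and 3.71, 4.05 and 3.51 in Arid3b-null heads. Its difference was -0.68 ± 0.24 (adjusted p = 0.0794), with Arid3b-null replicate 2 just above wild type replicate 3. Ndufs6, a zinc-binding accessory subunit of the matrix arm, read 5.95, 5.59 and 5.18 against 4.92, 5.34 and 4.90, a difference of -0.52 ± 0.23 (adjusted p = 0.147).

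The 7 nuclear genes of the catalytic core had the same median as all core genes, -0.28, and no member that passed limma's test or had an unadjusted p under 0.05. Ndufs1, the largest subunit, carries iron-sulfur clusters. It read 3.64, 3.68 and 3.68 in wild type and 3.34, 3.33 and 3.48 in Arid3b-null heads. Both groups of Ndufs1 were narrow and apart, with a difference of -0.28 ± 0.12 (adjusted p = 0.138) and within the 3 slides of -0.30, -0.35 and -0.20. Its difference was -0.10 with quantile normalization and -0.13 with normexp. Ndufv1, the subunit that binds NADH and flavin, also had groups that did not overlap (4.90, 4.82 and 4.74 against 4.57, 4.69 and 4.57, difference -0.21 ± 0.12, adjusted p = 0.263), though with normexp its difference was -0.012.

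Ndufs8, which carries iron-sulfur clusters towards ubiquinone, read 2.09, 2.02 and 1.12 in wild type and 1.01, 1.34 and 1.31 in Arid3b-null heads (-0.53 ± 0.27, adjusted p = 0.208). Wild type replicate 3 was again low, below 2 of the 3 Arid3b-null samples. Ndufs7, which holds the last iron-sulfur cluster before ubiquinone, read 4.98, 4.93 and 4.39 against 4.59, 4.92 and 4.69, a difference of -0.037 ± 0.20 (adjusted p = 0.914). Ndufs3, Ndufs4 and Ndufv2 had differences of -0.34 ± 0.18, -0.28 ± 0.18 and -0.30 ± 0.19. Ndufv3 had the highest difference of all members, 0.52 ± 0.27 (adjusted p = 0.209), and is taken up with the probes below.

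The arms of the complex gave medians near those of the name classes. In the membrane arm list 2 of 19 genes fell, with a median of -0.40, and in the matrix arm list 2 of 16 fell, with a median of -0.28. When Ndufs4, Ndufs5, Ndufs6 and Ndufv3 were put with the other accessory subunits, 5 of 30 fell (16.7%) and the median stayed at -0.45. These 4 genes on their own had a median of -0.40, with none that passed limma's test and 1 at an unadjusted p under 0.05. The difference between classes was not tested, since the genes are not replicates of a condition.

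The 45 genes shared an order among the arrays of each group. Wild type replicate 1 was the highest wild type array in 39 members (86.7%, beside 42.8% of all genes), and wild type replicate 3 was the lowest in 40 (88.9%, beside 48.0%). Among Arid3b-null arrays, replicate 2 was the highest in 39 members (86.7%, beside 44.0%), and the lowest was replicate 1 in 20 and replicate 3 in 21. The members that did not have their lowest wild type value in replicate 3 included Ndufa10, Ndufs1, Ndufaf5 and Ndufaf7. The median SD of a member was 0.336 among wild type and 0.182 among Arid3b-null arrays, where all genes had 0.247 and 0.176. Wild type was the more variable group in 41 of 45 members, or 91.1%, beside 69.9% of all genes.

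**Figure D2:**
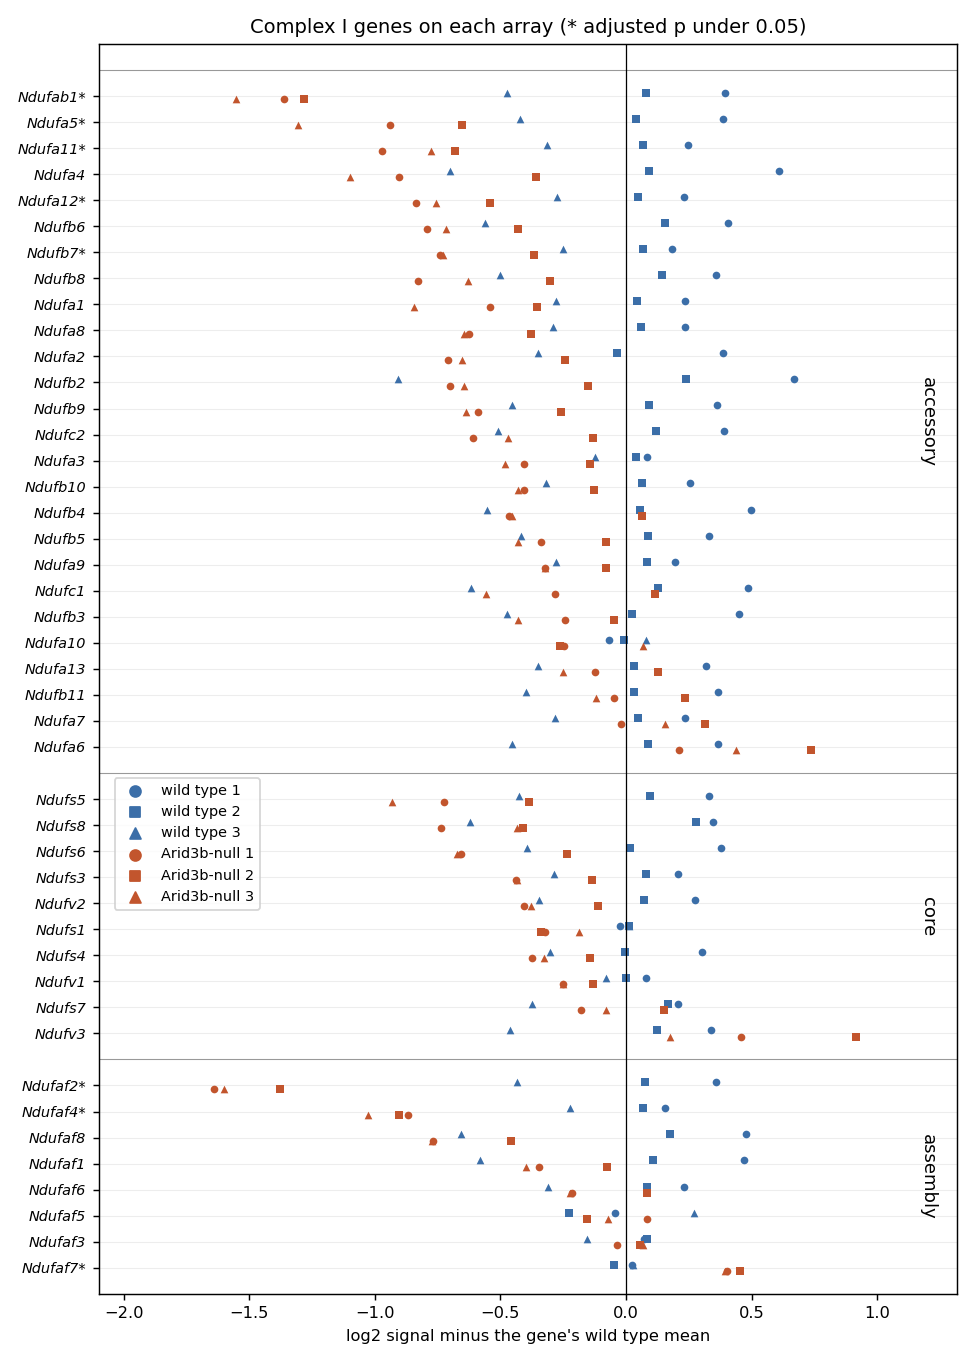
Signal of the complex I genes, apart from 1 that is not reported by name, on each of the 6 arrays, as log2 signal minus the gene's wild type mean (x axis), genes by class and, within a class, by difference (y axis; an asterisk marks genes that passed the test). Colour is the group and symbol the replicate number; wild type replicate 3 is the leftmost wild type point in 40 of the genes, and in most of them it lies among or next to the Arid3b-null points.

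The same order was seen in the medians of all 3 classes. Relative to the wild type mean of each gene, the median accessory gene was at 0.36, 0.07 and -0.41 on wild type arrays 1, 2 and 3 and at -0.57, -0.20 and -0.59 on the Arid3b-null arrays. The core genes were at 0.28, 0.07 and -0.35 and at -0.37, -0.14 and -0.33, so that wild type replicate 3 lay within the range of the Arid3b-null samples. The assembly genes were at 0.19, 0.08 and -0.27 and at -0.28, -0.11 and -0.31. Set against wild type replicate 1 alone, the Arid3b-null mean was lower in 25 of 26 accessory, 9 of 11 core and 7 of 8 assembly genes. Set against wild type replicate 3 alone, it was lower in 15, 5 and 4 of them, and the medians were -0.06, 0.02 and 0.09. Members that lay below all wild type arrays numbered 28 on Arid3b-null array 1, 13 on array 2 and 26 on array 3, where 32.7%, 31.2% and 37.5% of all genes did so.

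**Figure D3:**
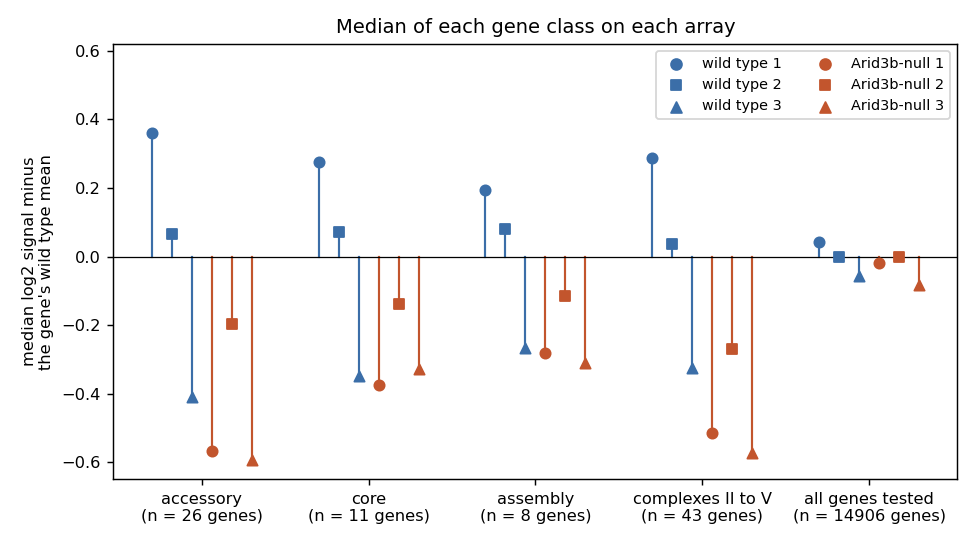
Median over the genes of a class, on each array, of log2 signal minus the gene's wild type mean (y axis), for accessory, core and assembly genes of complex I, for 43 genes of complexes II to V and for all genes tested (x axis). Each stem is an array; in the 3 complex I classes wild type replicate 3 lies at -0.27 to -0.41, near the Arid3b-null arrays, while all genes stay between -0.08 and 0.04.

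Leaving out single samples moved the count of members that fell in both directions. Without wild type replicate 3, 21 of 45 fell, beside 17.9% of all genes. It was 3 without wild type replicate 1 (5.92% of all genes), 3 without wild type replicate 2 (6.15%), 3 without Arid3b-null replicate 1 (4.29%), 4 without Arid3b-null replicate 2 (5.57%) and 3 without Arid3b-null replicate 3 (5.28%). In these 5 settings the members' share, 6.67% to 8.89%, was near that of all genes. Weights estimated per array gave wild type replicate 3 the lowest weight, 0.254, and with them 26 members fell, beside 23.2% of all genes. Ndufaf2, Ndufaf4 and Ndufab1 passed in all 17 other settings tried. They were also the 3 members that fell at an adjusted p under 0.01, where 3.46% of all genes did. Their adjusted p-values over these settings ran up to 0.0264, 0.0319 and 0.0375. Of the 45 members, 39 kept the sign of their difference in every setting, and 16 passed in none.

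**Figure D4:**
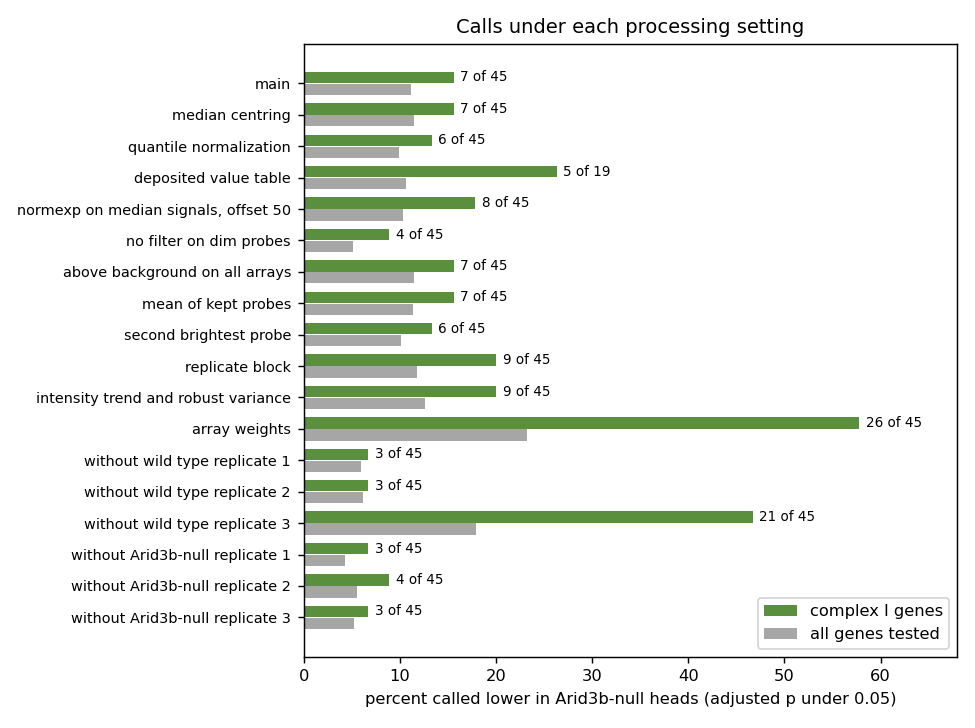
Percent of complex I genes (green) and of all genes tested (grey) that fell in Arid3b-null heads (x axis), under each processing setting (y axis), with the number of complex I genes written at each bar. The count is 3 to 9 of 45 in the settings with all complex I genes, apart from 21 without wild type replicate 3 and 26 with array weights; the deposited value table holds 19 of the genes, of which 5 fell.

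Within slides the median member was lower in Arid3b-null heads on each slide, by different amounts. The median difference over the 45 genes was -0.77 on slide 1, -0.21 on slide 2 and -0.11 on slide 3, where all genes had -0.06, -0.01 and -0.03. For the accessory genes it was -0.89, -0.25 and -0.12, for the core genes -0.64, -0.18 and -0.03, and for the assembly genes -0.63, -0.11 and -0.01. A difference below 0 on all 3 slides was seen in 27 members, beside 32.8% of all genes. Ndufaf2 differed by -2.0, -1.46 and -1.17, Ndufab1 by -1.76, -1.36 and -1.08, and Ndufaf4 by -1.02, -0.97 and -0.80, so these were lower on every slide. With slide, and so replicate number, as a block in the fit, 9 members fell, Ndufa1 and Ndufs5 being added, beside 11.8% of all genes, and the rise of Ndufaf7 was lost.

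For 8 members the array had a pair of probes, and 7 of these pairs were both measured. In Ndufaf4 the brighter probe fell by 0.93 and the dimmer by 0.71 (adjusted p = 0.010 and 0.0157 over all probes). In Ndufa5 they fell by 0.97 and 1.02 (adjusted p = 0.0438 and 0.0169). The probe pairs of Ndufb4 (-0.29 and -0.33), Ndufb6 (-0.65 and -0.61) and Ndufb5 (-0.28 and -0.51) also had differences of 1 sign, none of which passed. Those of Ndufb11 were at 0.023 and 0.24, and the dimmer probe of Ndufaf5 was not kept.

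Ndufv3 is the member whose call depended on the probe. This small subunit of the matrix arm is known to have isoforms of different length through alternative splicing. Its brighter probe, used here for the gene, read 5.09, 4.88 and 4.29 in wild type and 5.21, 5.67 and 4.93 in Arid3b-null heads. Its dimmer probe read -0.53, -0.39 and 0.014 in wild type and 1.02, 0.73 and 1.11 in Arid3b-null heads. The brighter probe had overlapping groups, whereas the dimmer one had groups far apart and rose by 1.25 (adjusted p = 0.00786 over all probes). The gene rose when its dimmer probe or the mean of both stood for it, and also after normexp background correction of the brighter probe.

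**Figure D5:**
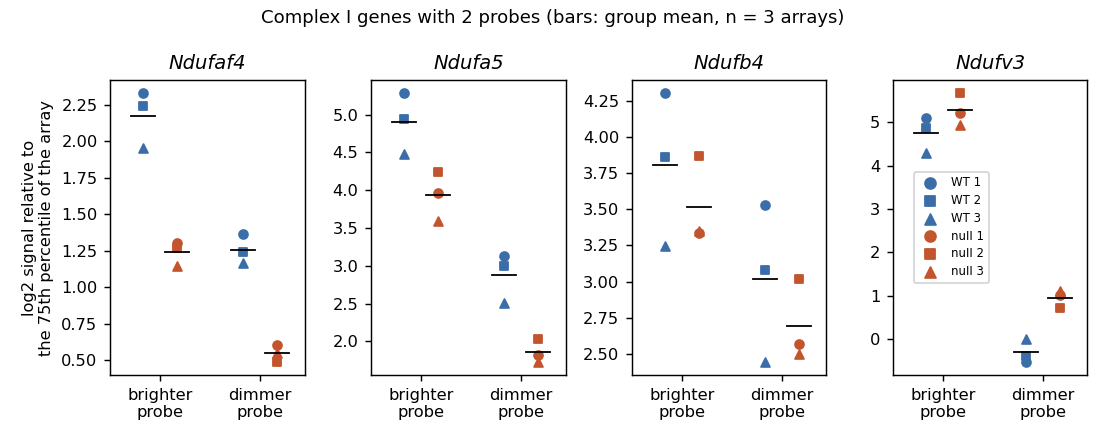
Log2 signal relative to the array's 75th percentile (y axis) for the brighter and dimmer probe (x axis) of Ndufaf4, Ndufa5, Ndufb4 and Ndufv3, each on its own scale. Points are arrays and bars group means of 3 arrays; both probes separate the groups in Ndufaf4 and Ndufa5, while in Ndufv3 the dimmer probe separates them and the brighter does not.

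Genes of the wider pathway were set beside the members. Of the other complex I assembly factors, 11 of 12 were measured and none passed limma's test, with 2 at an unadjusted p under 0.05 and a median of -0.09. The nearest were Ecsit, a partner of Ndufaf1 (-0.53 ± 0.17, adjusted p = 0.0623), and Dmac1, a membrane arm factor (-0.45 ± 0.17, adjusted p = 0.0947). Complexes II to V had 7 of 43 genes that fell, 16.3% beside 11.2% of all genes. None rose by limma (none at an unadjusted p under 0.05 either), where 12.3% of all genes did, and the median was -0.48. Within slides the medians of complexes II to V were -0.88, -0.26 and -0.20, and on wild type arrays 1, 2 and 3 they stood at 0.29, 0.04 and -0.33. The low values and the low wild type replicate 3 were thus shared with the rest of the respiratory chain genes listed.

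By complex, 3 of 8 genes of complex II fell (37.5%), 1 of 9 of complex III (11.1%) and 3 of 16 of complex V (18.8%). None of 10 of complex IV fell (3 at an unadjusted p under 0.05 by limma). Over all genes 11.2% fell. Assembly factors led complex II, Sdhaf1 falling by 0.81 ± 0.14 (adjusted p = 0.00819) and Sdhaf2 by 0.80 ± 0.19 (adjusted p = 0.0228). In complex III, Cyc1, cytochrome c1, fell by 0.54 ± 0.16 (adjusted p = 0.0475), a call lost in 12 of 17 other settings. In complex V, Atp5k fell by 0.91 ± 0.20 (adjusted p = 0.0210) and Atp5g1, a gene of the membrane ring, by 0.74 ± 0.18 (adjusted p = 0.0287). The Sdhaf2, Atp5g1 and Atp5k calls were lost in 6, 6 and 4 of 17 other settings (adjusted p up to 0.0819, 0.103 and 0.0712), mostly when an array was left out, and that of Sdhaf1 in none. In complex IV, Cox5b was at -0.79 ± 0.26 (adjusted p = 0.0689).

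Of 12 listed regulators of mitochondrial biogenesis, 2 fell (16.7%) and 2 rose, with a median of -0.06, where 11.2% of all genes fell and 12.3% rose. Nrf1 read 1.33, 1.25 and 1.46 in wild type and 0.28, 0.14 and 0.26 in Arid3b-null heads, and fell by 1.12 ± 0.13 (adjusted p = 0.00262). Its other probes differed by -0.69 and 0.48 without passing, and the gene did not pass when the mean of its probes or the second brightest stood for it. Ppargc1b, a coactivator of such genes, rose by 1.66 ± 0.24 (adjusted p = 0.00464), from -5.73, -4.87 and -5.51 to -3.91, -3.57 and -3.65. With normexp its rise was 0.57, and it passed in all 17 other settings. Of the 9 members with Nrf1 letters in the promoter windows, 3 fell, namely Ndufa5, Ndufa11 and Ndufaf4, and the median was -0.55. Their differences ran from -0.97 to 0.46, the upper end being Ndufa6. Of the other 31 members with a promoter, 4 fell, Ndufaf2 and Ndufab1 among them, and the median was -0.30. Over all genes tested 11.2% fell, and the share among all genes with the Nrf1 letters was not computed. None of the 6 members with the Yy1 letters passed limma's test. No test was made of the difference between members with and without Nrf1 letters.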

How the data were processed

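Cy3-labelled RNA from 6 pools of embryonic heads was measured on Agilent arrays, per the labels' protocols. The deposited scanner files hold intensity values from Feature Extraction (version 10.7.3.1 in the headers): a processed signal, background-subtracted and spatially detrended within the array, and median spot and background signals. The deposited value table holds values in the range of log2 intensities. Its scaling and centring are not stated and stay unknown, and it was used only as an alternative.

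Here the processed signal was taken as log2 minus the 75th percentile of non-control spots of each array. Outlier spots were left out, and a probe was kept if well above background on all 3 arrays of a group and measured on at least 5 arrays (26288 of 39429 probes). Probes were named through the RefSeq accession in the files: 26424 had 1 symbol and 13005 had none. The brightest kept probe stood for a gene. Groups were compared by limma's moderated linear model (R 4.3.3, limma 3.58.1) over all 14906 genes with Benjamini-Hochberg adjustment. The labels say that pools were separate, so p-values measure the spread between pools of embryos. Only the limma fit, without the scaling, filters and probe choice, was run on simulated data with independent noise for each gene. Those data lacked the order among arrays that the members shared, and no outcome is given here. The number of arrays limits the precision.

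The members and gene lists were chosen with earlier results of these data known. Arrays are shown in full for the 5 members of each class with the smallest p, the 2 with the largest and the brightest, and for a few others chosen after their values were seen (Ndufa4, Ndufa6 and Ndufv1). Of each other list, the 2 genes with the smallest p could be named. The values of 1 member are counted in the totals and are not reported here by name.

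Replicate numbers coincide with slides, per the file headers. Deviations from the group means of same-numbered arrays correlated at -0.20, 0.15 and 0.42 over genes, so the data alone do not pair the samples. The slide was therefore tested as a block and within slides. Other alternatives were median centring, quantile normalization, the deposited table, normexp on the median signals with an offset of 50, filters, probe choice, array weights, a robust variance that follows intensity, and leaving out each array.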

Additional observations from a re-analysis of the deposited data

How the results depend on the processing

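The 7 members that fell (11.2% of all genes fell) became 4 with no filter on dim probes (5.16%), 3 at an adjusted p under 0.01 (3.46%), 26 with array weights (23.2%) and 3 to 21 when single arrays were left out (4.29% to 17.9%), and lay between 5 and 10 in the other settings. The 1 member that rose became 0 with median centring, the deposited value table, no filter, the replicate block and an adjusted p under 0.01, 2 with normexp and with the mean of kept probes, and 0 to 1 when single arrays were left out. The median of the core genes turned to 0.31 in the deposited table, which holds 3 of them, and that of the assembly genes was -0.78 there over 4 genes; the accessory median kept its sign in every setting, from -0.68 to -0.25. Over all members, the core median was -0.12 with quantile normalization, -0.14 with normexp, -0.17 without wild type replicate 1 and -0.43 without wild type replicate 3. The accessory median was -0.27 with quantile normalization and with normexp, and the assembly median -0.054 without wild type replicate 1 and -0.42 without wild type replicate 3. The number of genes changed in all was 3506, against 2270 with no filter, 6685 with array weights and 1516 to 5199 when single arrays were left out. The replicate block, which is also the slide, gave 9 members that fell and 0 that rose. Apart from the fewer genes in the deposited table, the cause of these changes was not tested. All members were well above background and no spot was saturated.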

Other observations

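The gap of the members between wild type replicates 1 and 3 exceeded that of all genes at each signal level looked at. Among 17 members with a mean log2 signal above 4, the median of wild type replicate 1 minus replicate 3 was 0.67, beside 0.30 for the 795 genes of that level. It was 0.86 against 0.18 for levels of 2 to 4, 0.52 against 0.11 for levels of 0 to 2 and, over 3 members, 0.87 against 0.042 below 0. The median difference between the groups also varied with level over all genes, from 0.015 below 0 to -0.17 above 4, where the members had -0.67 and -0.34. Ndufa4l2, the gene left out by the rule, read -1.53, -1.57 and -1.83 in wild type and 2.44, 2.56 and 2.36 in Arid3b-null heads, 17.1-fold higher (limma adjusted p = 7.37e-05), while Ndufa4, whose name it shares, had a difference of -0.79.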
